A study of Lepidobatrachus laevis with 14 samples.

Results

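Left and right stomach pieces of Lepidobatrachus laevis, Budgett's frog, fell into 2 sets of libraries, replicates 1 to 3 and replicates 5 and 6, whose transcript levels differed widely although the labels describe both sets in the same words. The comparison here covers all 10 libraries made from 1 stomach each, of the 14 libraries in the series. Replicates 1 to 3 gave 6 libraries, 3 left and 3 right, and replicates 5 and 6 gave 4 libraries, 2 left and 2 right. The other 4 libraries pool tissue of 5 stomachs, were built at another facility and were left out.

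All 10 libraries are labelled as stomach at Gosner stage 19, of frogs that were wild-caught and of wild-type genotype, cut into a left and a right piece. The RNA was taken up in Trizol and cleaned on columns with a DNase step, and 1 facility built all 10 libraries with strand-specific kits. Titles of replicate 1 say foregut and those of replicate 2 say gut; their numbers were given here in accession order, while the titles of the others carry the numbers 3, 5 and 6. No label divides replicates 1 to 3 from 5 and 6 by clutch, date or sequencing run, and none states that the left and right libraries of a number came from the same embryo. The division follows the replicate numbers and was drawn with earlier results of these data known. The p-values below therefore set a known split against the spread between libraries and are not independent evidence for it. Total counts were 21525694 to 34229305 in replicates 1 to 3 and 47441280 to 62707669 in replicates 5 and 6, with no overlap. The sets therefore also differ in sequencing depth, and a difference of embryo set, of timing or of sequencing run cannot be told apart.

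The tadpoles of this frog are carnivorous and carry a large stomach. In vertebrates the gut tube is divided along its length by transcription factors: SOX2 marks the prospective oesophagus and stomach, CDX factors mark the intestine, and Hox genes of higher paralog number are active further towards the tail. Hedgehog ligands from the epithelium act on the surrounding mesenchyme, which forms smooth muscle and carries factors such as BARX1 and FOXF1. A dissected gut piece can also hold blood, vessels, lining mesothelium, neural crest cells, and adjoining kidney, liver or skin tissue, so lists of genes for these were examined beside those of the stomach.

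The libraries of a set resembled each other more than those of the other set. Pearson correlations of log2 CPM (a count per scaled library total, with trimmed-mean factors) were 0.956 to 0.989 within replicates 1 to 3, 0.97 to 0.987 within replicates 5 and 6, and 0.915 to 0.94 between the sets. The first principal component held 56.6% of the variance and separated the sets, and the second held 10.2%. At equal depth, with every library thinned to the lowest total, rows with at least 1 count numbered 25718 ± 64.9 in replicates 1 to 3 and 25225 ± 213 in replicates 5 and 6 (SD, n = 6 and 4, exact two-sided permutation p = 0.00952). The same p held for the shares described next. It is the smallest that 210 arrangements of the libraries allow (adjusted over 9 library measures, 0.0122), and with the 5 replicate numbers as units no p can go below 0.2.

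**Figure D1:**
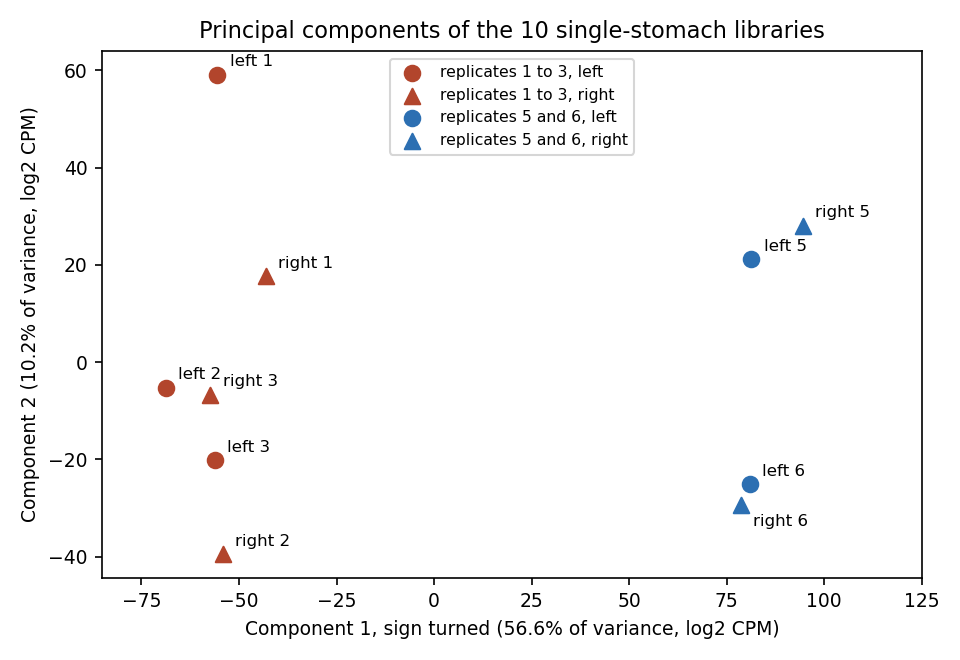
Scores of the 10 libraries on the first component (horizontal, 56.6% of variance, sign turned so that replicates 1 to 3 lie left) and second component (vertical, 10.2%) of log2 CPM; circles are left and triangles right libraries. Every library of replicates 1 to 3 lies left of every library of replicates 5 and 6, and left and right libraries are mixed within each set.

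Shares of the counts taken by a few gene groups differed with the set. Mitochondrially encoded rows took 6.49 ± 0.45% of counts in replicates 1 to 3 and 4.28 ± 0.34% in replicates 5 and 6 (SD, n = 6 and 4). Globin rows took 0.764 ± 0.594% in replicates 1 to 3, where single libraries ran between 0.106% and 1.70%, and 2.19 ± 0.281% in replicates 5 and 6. Keratin rows took 1.19 ± 0.2% in replicates 1 to 3 and 2.22 ± 0.116% in replicates 5 and 6. None of these shares overlapped between the sets. In whole-tissue RNA, a smaller number of cells of a type and less RNA per cell cannot be told apart.

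**Figure D2:**
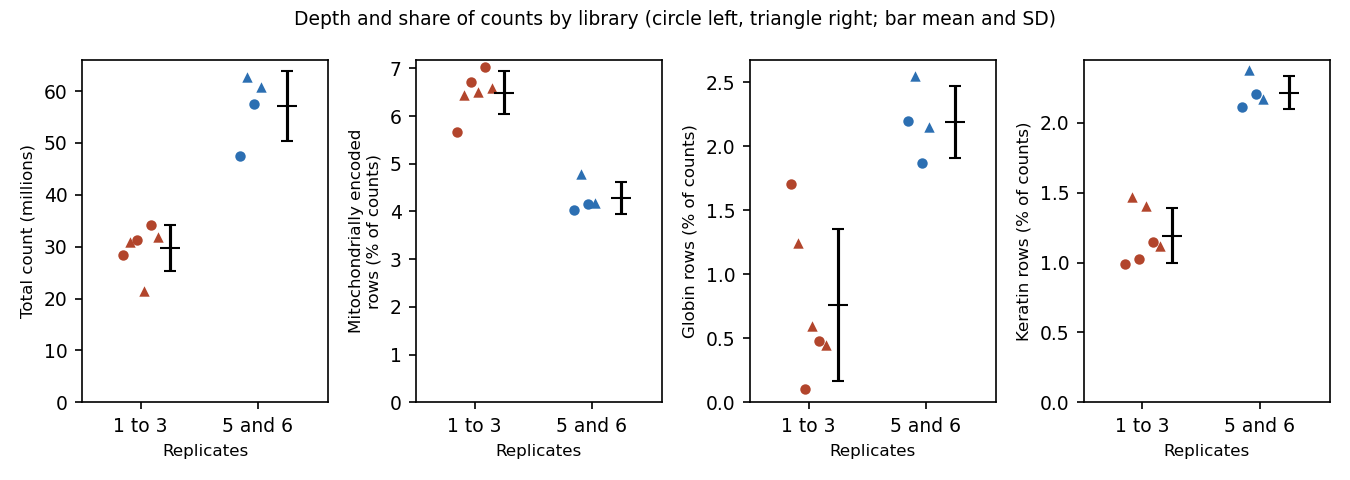
Total count and the share of counts in mitochondrially encoded, globin and keratin rows (vertical axes, total count or percent of counts) for each library of replicates 1 to 3 and of replicates 5 and 6, with mean and SD beside the points. Replicates 5 and 6 lie above replicates 1 to 3 in depth, globin and keratin, and below them in the mitochondrial share.

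Across the table, 11629 of 23768 tested rows, 48.9%, differed between the sets at an adjusted p below 0.05 (edgeR quasi-likelihood test with side as an additive term). Of these, 5634 were higher in replicates 1 to 3 (23.7% of the tested rows) and 5995 were lower (25.2%). Without scaling beyond the library totals, 6818 of the calls were higher, which moved the higher share of calls to 58.8% from 48.4% and the median log2 fold of all rows by 0.11. A fold of more than 2 was called for 1506 rows (6.34%), 768 higher (3.23%) and 738 lower (3.11%). With the 2 libraries of each number summed, which leaves 3 units against 2, 8605 of 24523 rows were called (35.1%). Summed by entry, 6163 of 12632 were called (48.8%). The 6 libraries of replicates 1 to 3 did not overlap the 4 of replicates 5 and 6 in 8770 rows (36.9%). The left libraries alone gave 5299 calls (22.9%) and the right libraries alone 5638 (24.5%). All 3662 rows called on both sides, 69.1% of the left calls and 65.0% of the right calls, had the same direction on each.

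The same fit called 0 rows between left and right (644 at an unadjusted p under 0.05), and the interaction of set and side also gave 0 (508 at an unadjusted p under 0.05 and 0 calls by DESeq2). No difference in the left-right contrast between the sets was thus detected, which does not show that there was none. For gene lists, 1 row stands for each human UniProt entry. Among 12594 such rows, 6302 were called (50.0%), 2596 higher (20.6%) and 3706 lower (29.4%) in replicates 1 to 3, with a median log2 fold of -0.07. The share of these rows whose libraries did not overlap between the sets was 14.7% for higher and 22.8% for lower. Counts of list members below are read against these shares. In the fit on sums, 16.9% of all rows were higher and 18.2% lower, and list counts from that fit are read against those.

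The genes lowest in replicates 1 to 3 included enzymes and transporters known from liver and kidney and a potassium channel. By a rule of size, the 12 genes with the largest folds in each direction were taken from 3006 rows that were called in both the library fit and the fit on sums, reached a mean of 5 CPM and did not overlap between the sets (1094 higher, 1912 lower). The values that follow for replicates 5 and 6 are in the order left 5, right 5, left 6 and right 6. DMGDH, dimethylglycine dehydrogenase of choline breakdown, had 0 to 0.134 CPM (median 0.0299) in replicates 1 to 3 and 14.8, 14.9, 12.9 and 13.2 CPM in replicates 5 and 6. The difference had an adjusted p of 9.09e-08, and no fold is given because the level in replicates 1 to 3 rests on a few counts. KCNN2, a calcium-activated potassium channel, had 0.180 to 0.408 CPM (median 0.296) in replicates 1 to 3 and 48.5, 77.0, 37.2 and 43.0 CPM in replicates 5 and 6. That is a log2 fold of -7.44 (SE 0.25, adjusted p = 1.68e-08), with all libraries of each set far from those of the other.

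CYP8B1, a hydroxylase of bile acid synthesis, had 1.07 to 4.58 CPM (median 1.86) in replicates 1 to 3 and 51.5, 87.7, 51.1 and 62.7 CPM in replicates 5 and 6 (log2 fold -4.77, SE 0.34, adjusted p = 3.35e-06). SLC22A6, an organic anion transporter of the kidney tubule, had 0.307 to 4.62 CPM (median 0.814) in replicates 1 to 3 and 24.8, 25.1, 30.2 and 31.9 CPM in replicates 5 and 6 (log2 fold -4.16, SE 0.57, adjusted p = 0.000216). Its relative SLC22A8 had 0.337 to 2.45 CPM (median 0.444) in replicates 1 to 3 and 12, 13.3, 14.7 and 17.7 CPM in replicates 5 and 6 (log2 fold -3.96, SE 0.51, adjusted p = 0.000136). Both transporters were highest within replicates 1 to 3 in a replicate 1 library, and without left 1 their log2 folds were -4.99 and -4.57. ZCCHC13, a zinc-finger protein with a close paralog that may share its reads, had 17.2 to 127 CPM (median 32.7) in replicates 1 to 3 and 876, 988, 848 and 923 CPM in replicates 5 and 6 (log2 fold -4.13, SE 0.54, adjusted p = 0.000158). Leaving out both libraries of replicate 1 moved the log2 folds of CYP8B1 to -5.41 and of ZCCHC13 to -5.19.

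Next by size were RGCC, REM2, ENTPD8, PIWIL1 and GFI1, with log2 folds of -3.95 to -3.12. RGCC, a regulator of the cell cycle, had 4.78 to 12.6 CPM (median 6.10) in replicates 1 to 3 and 115, 99.3, 103 and 114 CPM in replicates 5 and 6. PIWIL1, a Piwi protein of the germ line, had 0.737 to 2.69 CPM in replicates 1 to 3 and 19.4, 16.4, 9.88 and 10.6 CPM in replicates 5 and 6. GFI1, a repressor of blood and secretory cell lineages, had 1.26 to 19.3 CPM in replicates 1 to 3 and 88.3, 54.0, 64.3 and 71.4 CPM in replicates 5 and 6. Between them, REM2, a small GTPase, and ENTPD8, an ectonucleotidase, had log2 folds of -3.93 and -3.26. Without both replicate 1 libraries the folds of REM2 and GFI1 were -4.58 and -3.89.

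Among genes higher in replicates 1 to 3, 2 belong to immune defence and 3 carry names of proteins with close paralogs. SULT1C4, a sulfotransferase, had 4.63 to 38.2 CPM (median 7.90) in replicates 1 to 3 and 0.471, 0.506, 0.429 and 0.398 CPM in replicates 5 and 6 (log2 fold 5.06, SE 0.76, adjusted p = 0.000379). Without right 1 the fold was 4.37. APOA4, an apolipoprotein of intestine and liver, had 3.32 to 53.4 CPM (median 9.33) in replicates 1 to 3 and 0.771, 2.67, 0.0536 and 0.277 CPM in replicates 5 and 6 (log2 fold 4.22, SE 0.95, adjusted p = 0.00408). The APOA4 fold depended on single libraries: it was 3.35 without right 1 and 5.26 without right 5.

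ITGB2, the shared chain of leukocyte integrins, had 24.8 to 41.1 CPM (median 30.5) in replicates 1 to 3 and 2.04, 0.524, 1.30 and 4.13 CPM in replicates 5 and 6 (log2 fold 3.97, SE 0.46, adjusted p = 7.48e-05, or 4.70 without right 6). C7, a component of the membrane attack complex, had 70.6 to 109.6 CPM (median 84.1) in replicates 1 to 3 and 14.4, 9.06, 10.2 and 12.1 CPM in replicates 5 and 6 (log2 fold 2.90, SE 0.17, adjusted p = 9.74e-07). KCNE4, an accessory subunit of potassium channels, had 5.98 to 25.1 CPM (median 13.2) in replicates 1 to 3 and 1.89, 1.31, 0.733 and 0.934 CPM in replicates 5 and 6 (log2 fold 3.58, SE 0.46, adjusted p = 0.000142). For these 3 genes, as the rule required of all 12, the lowest library of replicates 1 to 3 lay above every library of replicates 5 and 6. NKX6-2, a homeobox factor, had 6.49 to 43.9 CPM (median 21.8) in replicates 1 to 3 and 3.77, 2.81, 0.858 and 2.06 CPM in replicates 5 and 6 (log2 fold 3.41, SE 0.59, adjusted p = 0.000854). SOX8, a relative of the neural crest factor SOX10, had 3.91 to 28.2 CPM in replicates 1 to 3 and 0.750, 0.541, 1.73 and 1.25 CPM in replicates 5 and 6, a log2 fold of 3.28. FAAH, which breaks down fatty acid amides, had a log2 fold of 2.82, and ZNF444, a zinc-finger protein, one of 2.91, or 3.60 without right 6.

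**Figure D3:**
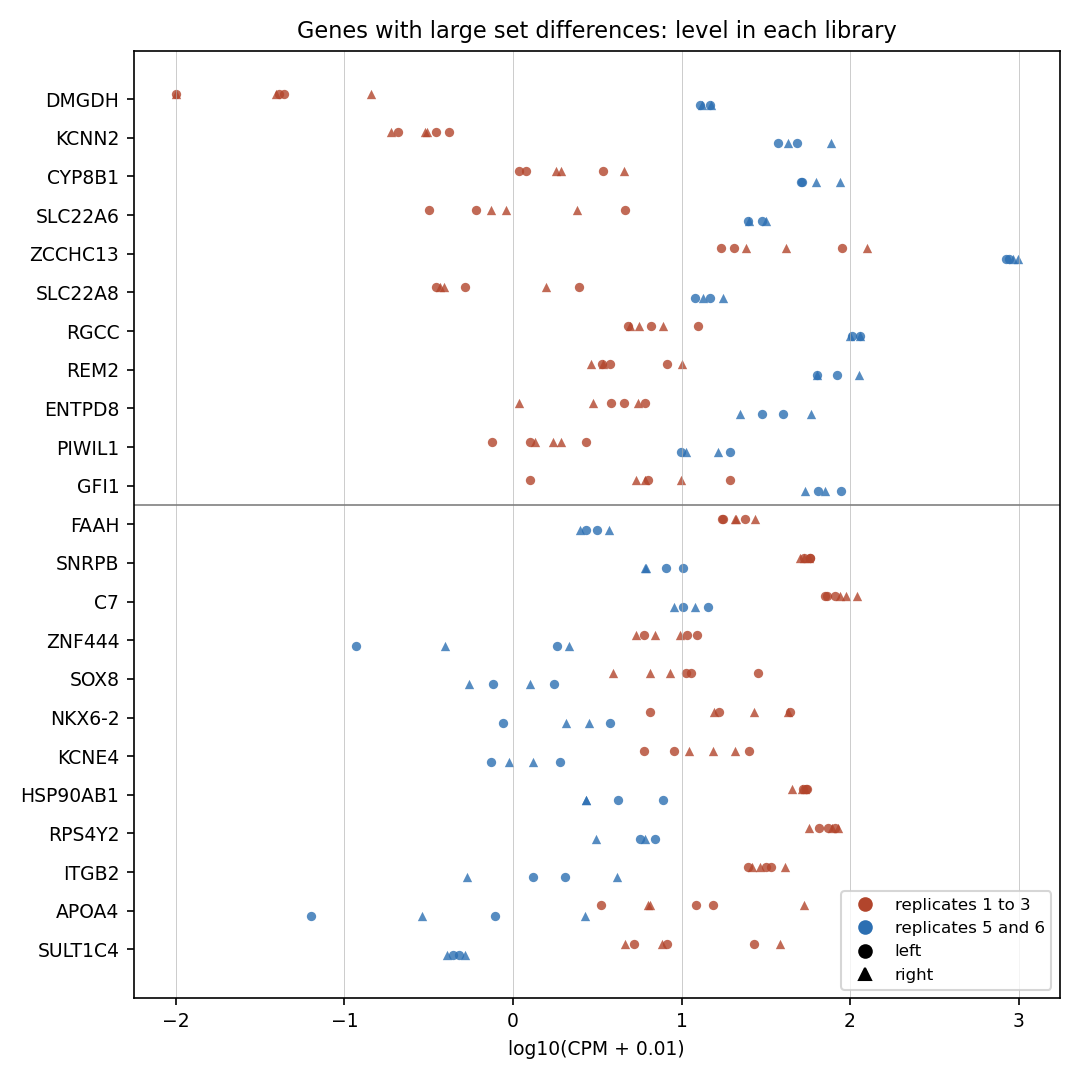
Level in each library, as log10(CPM + 0.01), of 11 of the 12 genes with the largest negative and the 12 with the largest positive log2 fold; red points are replicates 1 to 3 and blue points replicates 5 and 6. No gene overlaps between the sets, as the rule required, and the upper block is lower and the lower block higher in replicates 1 to 3.

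Other names among the 12 high genes are those of proteins whose reads may be split between near-identical rows. HSP90AB1, a cytosolic chaperone, had 45.2 to 55.6 CPM (median 53.2) in replicates 1 to 3 and 7.71, 2.71, 4.18 and 2.72 CPM in replicates 5 and 6, a log2 fold of 3.68. Its family member HSP90AA1 had 2415 to 2892 CPM in replicates 1 to 3 and 2196, 1185, 1424 and 1648 CPM in replicates 5 and 6, a log2 fold of 0.78. The 3 HSP90 rows together summed to 2460 to 2948 CPM in replicates 1 to 3 and 1189 to 2205 CPM in replicates 5 and 6, and their means had a ratio of 1.74.

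RPS4Y2, a ribosomal protein name with close human paralogs, showed the same contrast between row and family. The row had 57.1 to 84.3 CPM (median 75.9) in replicates 1 to 3 and 6.92, 3.09, 5.70 and 6.04 CPM in replicates 5 and 6, a log2 fold of 3.77. RPS4Y1 went the other way, with 0.0283 to 0.0680 CPM in replicates 1 to 3 and 6.84, 1.90, 2.31 and 1.89 CPM in replicates 5 and 6 (adjusted p = 2.12e-06). The 3 rows named for this protein, most of whose level was in RPS4X, summed to 1351 to 1576 CPM in replicates 1 to 3 and 669 to 1097 CPM in replicates 5 and 6, a ratio of 1.8. SNRPB, a core spliceosomal protein, had 50.4 to 57.7 CPM in replicates 1 to 3 and 10.1, 6.11, 8.06 and 6.07 CPM in replicates 5 and 6, a log2 fold of 2.88. How the reads were divided among paralog rows in these libraries was not tested.

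Rows of one entry did not always move together. Of 3603 entries with at least 2 tested reviewed rows, 1282 had at least 2 called, and 172 of those (13.4%) had rows called in opposite directions. In a search added after the data were seen, 5 rows had 0 counts in all 6 libraries of replicates 1 to 3 and at least 10 counts in each library of replicates 5 and 6, and 2 rows had the reverse. The row named osteocalcin, the bone matrix protein BGLAP, had 0 counts in each of replicates 1 to 3 and 117, 179, 183 and 211 counts in replicates 5 and 6. With 3 counts taken over replicates 1 to 3 as the floor, that is at least 192-fold lower. Such rows name human proteins, and whether each is a distinct frog transcript was not tested.

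Most posterior Hox transcripts, though not HOXD9, were lower in replicates 1 to 3 than in replicates 5 and 6. HOXA9 had 0 to 0.1 CPM (median 0) in replicates 1 to 3 and 4.74, 4.44, 3.82 and 1.35 CPM in replicates 5 and 6 (adjusted p = 2.2e-05). HOXA10 had at most 0.0334 CPM in replicates 1 to 3, a single count in right 1 and 0 in the other libraries, and 3.51, 4.61, 4.09 and 0.761 CPM in replicates 5 and 6 (adjusted p = 1.51e-05). HOXC9 had 0 to 0.401 CPM (median 0.0170) in replicates 1 to 3 and 5.98, 5.59, 4.54 and 2.02 CPM in replicates 5 and 6 (adjusted p = 0.000122), and HOXC10 fell in the same way (adjusted p = 5.56e-05). Within replicates 5 and 6, right 6 was the lowest for all 4 of these genes, and it still lay above replicates 1 to 3. Folds are not given because the levels in replicates 1 to 3 rest on a few counts.

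Among the 27 tested Hox genes of the list, 4 were higher (14.8%) and 12 lower (44.4%) in replicates 1 to 3, with a median log2 fold of -0.60. The shares among all entries were 20.6% and 29.4%. The 4 higher became 2 without left 5. Grouping them by paralog number was done after their values were seen, and HOXA6, outside the list, was added. Of 7 tested genes of paralog groups 1 to 3, which act at the front of the body axis, 3 were higher and 1 lower, and their summed level was 76.1 to 144.6 CPM in replicates 1 to 3 and 80.7, 83.5, 90.7 and 86.4 CPM in replicates 5 and 6. Of 12 in groups 4 to 8, 1 was higher and 4 lower, so the share called lower was near the 29.4% among all entries. A trend over the groups was not tested. Of 9 tested in groups 9 to 13, which act towards the tail, 8 were lower and 0 higher. Those 8 were at or near 0 in most libraries of replicates 1 to 3, so they passed the filter through replicates 5 and 6. Their direction was thus fixed by the filter, and the split of 8 to 0 is no separate evidence. The same 8 are among the 12 lower genes of the list. Its lower share of 44.4% against 29.4% is therefore no separate evidence either. The posterior sum was 2.43 to 7.52 CPM (median 4.0) in replicates 1 to 3 and 38.4, 33.3, 36.2 and 14.2 CPM in replicates 5 and 6. HOXD9 was the posterior gene not called, at 2.25 to 4.78 CPM in replicates 1 to 3 and 3.81 to 5.01 CPM in replicates 5 and 6.

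**Figure D4:**
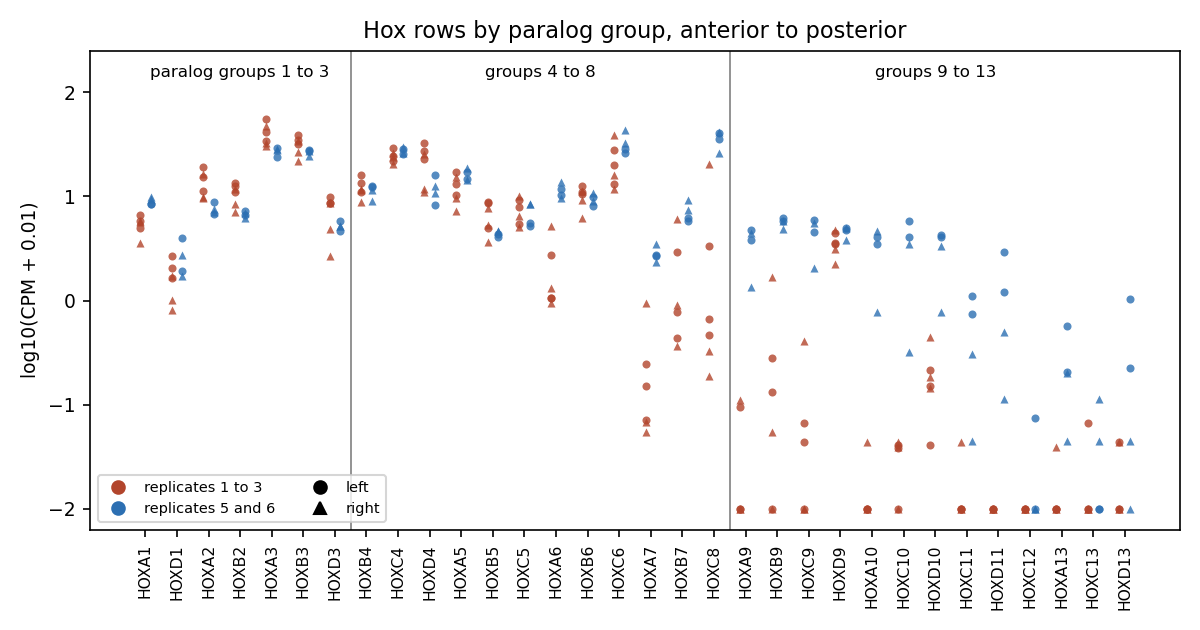
Level of each Hox row in each library, as log10(CPM + 0.01), ordered by paralog group from anterior to posterior, with replicates 1 to 3 in red left of replicates 5 and 6 in blue; a value of -2 stands for a row at 0 CPM. In groups 1 to 3 the sets overlap in 4 of 7 rows, and in groups 9 to 13 the rows of replicates 1 to 3, HOXD9 among them, sum to 2.43 to 7.52 CPM and those of replicates 5 and 6 to 14.2 to 38.4 CPM.

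The intestine list was mixed. Of its 18 tested members 4 were higher and 6 lower in replicates 1 to 3 (median log2 fold 0.04), and the 6 became 3 without left 6. With all libraries the shares, 22.2% higher and 33.3% lower, were close to the 20.6% and 29.4% among all entries. CDX4, a caudal factor of the posterior body, had 0 to 0.283 CPM (median 0.194) in replicates 1 to 3 and 4.37, 4.57, 8.06 and 3.67 CPM in replicates 5 and 6 (log2 fold -4.96, SE 0.40, adjusted p = 7.73e-06). The CDX4 fold rests on few counts in replicates 1 to 3. CDX4 passed the filter through replicates 5 and 6, so its direction was fixed by it and its call is no separate evidence. LGALS4, a galectin of the gut epithelium, had 1.56 to 7.71 CPM in replicates 1 to 3 and 8.29, 11.4, 12.4 and 13.3 CPM in replicates 5 and 6 (log2 fold -1.33, SE 0.34, adjusted p = 0.00763). Its call was lost without both libraries of replicate 6 (adjusted p = 0.0744). CDX2, the defining intestinal factor, overlapped between the sets, at 11.9 to 56.7 CPM in replicates 1 to 3 and 44.8 to 51.4 CPM in replicates 5 and 6. FABP2, a fatty acid carrier of the intestinal lining, did not overlap, at 0.0283 to 1.70 CPM in replicates 1 to 3 and 2.27 to 2.46 CPM in replicates 5 and 6 (adjusted p = 0.0351). VIL1, a brush-border protein, was at or below 0.675 CPM in every library of both sets.

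Many stomach and foregut transcription factors were higher in replicates 1 to 3. Of 35 tested members of this list 19 were higher (54.3%) and 4 lower (11.4%), against 20.6% and 29.4% among all entries. The fit on sums gave the same counts, and the median log2 fold was 0.97. The summed level was 1216 to 1684 CPM in replicates 1 to 3 and 1027, 838, 1153 and 1155 CPM in replicates 5 and 6, without overlap. SOX2, the foregut factor, had 40.4 to 134 CPM (median 93.4) in replicates 1 to 3 and 17.1, 4.84, 18.9 and 17.6 CPM in replicates 5 and 6 (log2 fold 2.59, SE 0.36, adjusted p = 0.000221). Right 5 was the lowest library for SOX2, and leaving out both replicate 6 libraries gave 3.18. FOXF1, a forkhead factor of gut mesenchyme and a Hedgehog target in mouse, had 116 to 231 CPM (median 167) in replicates 1 to 3 and 87.8, 41, 52.4 and 60.2 CPM in replicates 5 and 6 (log2 fold 1.51, SE 0.22, adjusted p = 0.000301). NKX2-5, which marks the pyloric mesenchyme in chick and mouse, had 14.3 to 28.5 CPM in replicates 1 to 3 and 8.01, 5.05, 6.4 and 7.49 CPM in replicates 5 and 6, a log2 fold of 1.55. ISL1, a homeobox factor of stomach mesenchyme, had 47.3 to 88.3 CPM in replicates 1 to 3 and 42.3, 18.5, 27.2 and 27.1 CPM in replicates 5 and 6, a log2 fold of 1.33. Among the 4 lower members were SOX17, an endoderm factor, with a log2 fold of -1.97, and GRHL2, a factor of epithelial integrity, with -0.99. GATA4, a defining stomach factor, had 66.5 to 130.7 CPM in replicates 1 to 3 and 78.1 to 132 CPM in replicates 5 and 6. Of the defining stomach and foregut markers, SOX2 alone did not overlap between the sets. The medians of GATA6, FOXA2, PDX1 and BARX1 were higher in replicates 1 to 3, and those of GATA4, GATA5 and NKX6-3 in replicates 5 and 6. NKX6-3 had a median of 7.25 CPM in replicates 1 to 3 and 12.5 CPM in replicates 5 and 6.

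SIM2, the transcription factor named in the study's title, was called higher in replicates 1 to 3. The call was made with side in the fit and also on sums per number, which hold no side term. SIM2 had 0.765 to 19.3 CPM (median 7.90) in replicates 1 to 3 and 2.27, 0.419, 2.66 and 0.484 CPM in replicates 5 and 6. The log2 fold was 2.82 (SE 0.48, adjusted p = 0.000814; 0.0025 on sums per number), and the levels overlapped between the sets. By side, the left libraries 1, 2 and 3 had 8.91, 19.3 and 15.6 CPM and the right libraries 4.38, 0.765 and 6.90 CPM, so that in both sets each left library lay above the right library of its number. The side and interaction fits, which hold no term for the number, did not call SIM2, and this does not show that its sides are alike.

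Part of the Hedgehog pathway was higher in replicates 1 to 3. Of 18 genes tested, 8 were higher (44.4%) and 2 lower (11.1%), against 20.6% and 29.4% among all entries. The fit on sums gave 8 and 1, and the median log2 fold was 0.33. The summed level was 378 to 477 CPM in replicates 1 to 3 and 386, 312, 372 and 357 CPM in replicates 5 and 6, which overlapped in left 5. IHH, a ligand of gut epithelium, had 6.44 to 12.5 CPM (median 8.66) in replicates 1 to 3 and 2.19, 0.925, 1.22 and 1.06 CPM in replicates 5 and 6 (log2 fold 2.76, SE 0.28, adjusted p = 3.23e-05). HHIP, a ligand-binding inhibitor that the pathway also induces, had a log2 fold of 0.82, and DISP1, which releases the ligand, one of 0.63. For HHIP the sets overlapped, at 6.57 to 17.0 CPM in replicates 1 to 3 and 5.09 to 7.74 CPM in replicates 5 and 6.

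The list of mesothelium and gut mesenchyme was divided, with 8 of 26 higher and 6 lower (median log2 fold 0.32). Those shares were 30.8% and 23.1%, against 20.6% and 29.4% among all entries. The 8 became 5 without right 5. BNC2, a zinc-finger protein of mesenchyme, had 38.0 to 42.6 CPM (median 40.4) in replicates 1 to 3 and 7.80, 6.18, 10.6 and 8.20 CPM in replicates 5 and 6 (log2 fold 2.31, SE 0.13, adjusted p = 6.76e-07). HAND1, a factor of lateral mesoderm and gut muscle, had 17.1 to 69.9 CPM (median 39.2) in replicates 1 to 3 and 118, 151, 132 and 147 CPM in replicates 5 and 6 (log2 fold -1.85, SE 0.21, adjusted p = 7.29e-05). These 2 genes moved in opposite directions with no overlap between the sets.

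Many contractile smooth muscle genes were lower in replicates 1 to 3. Of 17 tested, 10 were lower (58.8%) and 4 higher (23.5%), against 29.4% and 20.6% among all entries. The fit on sums gave 8 and 2, and the median log2 fold was -0.46. The list summed to 1297 to 1789 CPM in replicates 1 to 3 and 3030.5, 2775, 2643 and 2610.4 CPM in replicates 5 and 6. MYH11, the smooth muscle myosin heavy chain, had 93.5 to 197 CPM (median 129) in replicates 1 to 3 and 383, 411, 375 and 346 CPM in replicates 5 and 6 (log2 fold -1.52, SE 0.14, adjusted p = 1.96e-05). CALD1, caldesmon, had 365 to 532 CPM in replicates 1 to 3 and 752, 858, 796 and 758 CPM in replicates 5 and 6, a log2 fold of -0.78, and CNN2, a calponin, one of -0.88. TAGLN, transgelin, went the other way, with 13.9 to 24 CPM in replicates 1 to 3 and 6.92, 9.01, 7.99 and 12.2 CPM in replicates 5 and 6 (log2 fold 1.22, SE 0.16, adjusted p = 0.000141). The smooth muscle actins overlapped between the sets. ACTA2 had 29.15 to 56.6 CPM in replicates 1 to 3 and 37.8 to 60.8 CPM in replicates 5 and 6. ACTG2 had 2.44 to 15.8 CPM in replicates 1 to 3 and 4.22 to 6.94 CPM in replicates 5 and 6. CNN1, a marker of mature smooth muscle, was at or near 0 in both sets.

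Genes of the mature gastric epithelium moved in both directions. Of 13 tested, 6 were lower (46.2%) and 4 higher (30.8%) in replicates 1 to 3, against 29.4% and 20.6% among all entries. The median log2 fold was -0.82. The summed level was 346 to 486 CPM in replicates 1 to 3 and 892, 935, 969.7 and 969 CPM in replicates 5 and 6. CAPN9, a calpain of the digestive tract, had 66.2 to 168 CPM (median 128) in replicates 1 to 3 and 283, 316, 289 and 266 CPM in replicates 5 and 6 (log2 fold -1.18, SE 0.20, adjusted p = 0.000777). KCNQ1, a potassium channel of acid-secreting cells, had 30.9 to 43.9 CPM in replicates 1 to 3 and 58.0, 65.7, 72.2 and 66.9 CPM in replicates 5 and 6, a log2 fold of -0.87, and KCNJ15, another, one of -1.06. MUC5AC, a gastric surface mucin, had 7.42 to 16.9 CPM (median 11.6) in replicates 1 to 3 and 3.75, 4.07, 5.31 and 4.03 CPM in replicates 5 and 6 (log2 fold 1.49, SE 0.23, adjusted p = 0.000451).

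Markers of tissues that adjoin or invade the stomach also differed, and their part in the differences above was not tested. Epidermal and hatching gland genes were lower in replicates 1 to 3 for 16 of 25 tested members (64%) and higher for 2 (8%). Among all entries these shares were 29.4% and 20.6%. The fit on sums gave 15 and 1, and the median log2 fold was -0.77. The list summed to 7250.1 to 11792 CPM in replicates 1 to 3 and 15886, 19266, 16752 and 16907 CPM in replicates 5 and 6. KRT18, a keratin of simple epithelia and notochord as well, had 11.9 to 31.7 CPM (median 21.0) in replicates 1 to 3 and 67.6, 121, 75.6 and 68.8 CPM in replicates 5 and 6 (log2 fold -1.93, SE 0.27, adjusted p = 0.000246). Desmosomal DSP, DSG2 and PKP3 had log2 folds of -0.94, -0.84 and -0.75. The epidermal markers TP63 and KRT5 were above 0 in every library. TP63 had 2.48 to 10.3 CPM in replicates 1 to 3 and 13.9 to 22.9 CPM in replicates 5 and 6. KRT5 had 171 to 513 CPM in replicates 1 to 3 and 831 to 1063 CPM in replicates 5 and 6. TFAP2C, another defining marker, had 38.5 to 99.97 CPM in replicates 1 to 3 and 138.5 to 184.7 CPM in replicates 5 and 6. KRT14 did not follow them, at 0.495 to 2.71 CPM (median 0.665) in replicates 1 to 3 and 0.519 to 0.838 CPM (median 0.563) in replicates 5 and 6.

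Red cell genes varied strongly within replicates 1 to 3. Of 23 tested, 8 were lower and 1 higher in replicates 1 to 3 (median log2 fold -0.96, and 4 and 1 on sums). Those shares were 34.8% and 4.35%, against 29.4% and 20.6% among all entries. The summed level was 19156 CPM in left 1 and 14796 CPM in right 1, 1401 to 6851 CPM in the other 4 libraries of replicates 1 to 3, and 26219, 31281, 21639 and 25419.6 CPM in replicates 5 and 6. The count of lower members rested on single libraries: it was 18 without left 1, 5 without left 5 or without right 5, 20 without both libraries of replicate 1 and 3 without both of replicate 5. TAL1, a factor of blood formation, had 5.76 to 27.9 CPM (median 14.4) in replicates 1 to 3 and 82.9, 42.3, 45.7 and 46.1 CPM in replicates 5 and 6 (log2 fold -1.88, SE 0.36, adjusted p = 0.00154). SPTB, the spectrin of the red cell membrane, had 5.36 to 106 CPM in replicates 1 to 3 and 316, 304, 183 and 192 CPM in replicates 5 and 6 (log2 fold -2.44, SE 0.58, adjusted p = 0.00558). The SPTB fold was -3.15 without left 1, and its call was lost without both replicate 5 libraries (-2.03, adjusted p = 0.0572). EPB41, of the same membrane skeleton, had a log2 fold of -0.74.

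Leukocyte genes went the opposite way. Of 22 tested, 14 were higher (63.6%) and 4 lower (18.2%) in replicates 1 to 3, against 20.6% and 29.4% among all entries. The fit on sums gave 13 and 4, and the median log2 fold was 1.51. However, the summed level overlapped, at 87.6 to 174 CPM in replicates 1 to 3 and 202, 153, 132 and 149 CPM in replicates 5 and 6. CORO1A, a leukocyte actin regulator, had 5.44 to 12.4 CPM (median 7.19) in replicates 1 to 3 and 1.5, 1.78, 1.54 and 2.02 CPM in replicates 5 and 6 (log2 fold 2.17, SE 0.20, adjusted p = 1.81e-05). CD68, a macrophage lysosomal protein, had 0.889 to 2.43 CPM in replicates 1 to 3 and 0.15, 0.0873, 0.143 and 0.208 CPM in replicates 5 and 6, a log2 fold of 3.18. SPI1, the myeloid master factor, had 0.674 to 2.07 CPM in replicates 1 to 3 and 0.15, 0.227, 0.0715 and 0.138 CPM in replicates 5 and 6, a log2 fold of 2.87. The folds of CD68 and SPI1 rest on few counts in replicates 5 and 6. Both genes passed the filter through replicates 1 to 3. Their direction was thus fixed by the filter, and their calls among the 14 are no separate evidence. How many others of the 14 did so was not counted. Among the 4 lower members, named after their values were seen, RUNX1, a factor of blood stem and endothelial cells, had 2.79 to 24.7 CPM in replicates 1 to 3 and 149, 91.8, 85.6 and 86.6 CPM in replicates 5 and 6. MPO, a granulocyte peroxidase, had 1.62 to 6.59 CPM in replicates 1 to 3 and 9.94, 18.8, 13.7 and 14.3 CPM in replicates 5 and 6. PTPRC, the pan-leukocyte marker, overlapped between the sets, at 0.510 to 4.27 CPM in replicates 1 to 3 and 1.05 to 1.25 CPM in replicates 5 and 6.

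Complement genes were higher in replicates 1 to 3 for 7 of 16 tested members (43.75%) and lower for 0, against 20.6% and 29.4% among all entries. The fit on sums gave 5 and 0, 1 was lower without left 1 or without right 1, and the median log2 fold was 0.78. The list sum overlapped, however, at 1187 to 4241 CPM (median 1771) in replicates 1 to 3 and 1661 to 2386 CPM (median 1902) in replicates 5 and 6. Beside C7, C6, another terminal component, had 104 to 201 CPM (median 130.0) in replicates 1 to 3 and 49.4, 37.4, 39.6 and 47.6 CPM in replicates 5 and 6 (log2 fold 1.69, SE 0.19, adjusted p = 5.73e-05). CFB, a protease of the alternative pathway, had a log2 fold of 1.68. Liver plasma protein genes, many made by the same organ, gave 5 higher (20%) and 1 lower (4%) of 25, and 1 and 0 on sums. The higher share was near the 20.6% among all entries, and the lower share was below the 29.4%. Single libraries moved these counts: the higher members numbered 2 without right 1, right 5 or right 6 and 3 without left 1, left 2, right 2 or left 6, and the lower ones 2 without left 1 or right 1 and 0 without left 2, left 6 or right 6. Without both libraries of replicate 1, 3 were higher and 9 lower. Their sum was 8169.6 CPM in left 1 and 14572 CPM in right 1, 2514 to 7436 CPM in the other libraries of replicates 1 to 3 and 5110.3, 7703, 4946 and 5766 CPM in replicates 5 and 6, so the sets overlapped.

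Endothelial genes were higher in replicates 1 to 3 in 13 of 23 tested members (56.52%) and lower in 3 (13.04%), against 20.6% and 29.4% among all entries. The fit on sums gave 13 and 2, and the median log2 fold was 0.50. However, the list sum overlapped, at 774 to 1104 CPM (median 948) in replicates 1 to 3 and 653 to 819 CPM (median 715) in replicates 5 and 6. VWF, von Willebrand factor, had 224 to 422 CPM (median 324) in replicates 1 to 3 and 144, 164, 137 and 128 CPM in replicates 5 and 6 (log2 fold 1.15, SE 0.14, adjusted p = 9.19e-05). ROBO4, a receptor of vessel walls, had 12.6 to 26.4 CPM in replicates 1 to 3 and 5.64, 3.70, 3.56 and 2.65 CPM in replicates 5 and 6, a log2 fold of 2.29, and FLI1, a vascular transcription factor, one of 1.19. KDR, a receptor of all endothelium, overlapped, at 32.2 to 53 CPM in replicates 1 to 3 and 33.8 to 38.5 CPM in replicates 5 and 6.

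Part of the neural crest, enteric neuron and endocrine genes were higher in replicates 1 to 3. Of 26 enteric and crest genes 10 were higher (38.5%) and 2 lower (7.69%), against 20.6% and 29.4% among all entries. The fit on sums gave 9 and 1, and the median log2 fold was 0.72. The 10 became 6 without right 3 and the 2 became 1 without left 6. The list sum overlapped, at 216 to 331 CPM in replicates 1 to 3 and 241 to 301 CPM in replicates 5 and 6. SOX10, which marks crest-derived cells, had 0.225 to 18.4 CPM (median 4.09) in replicates 1 to 3 and 0.0857, 0, 0.590 and 0.138 CPM in replicates 5 and 6 (log2 fold 4.76, SE 0.84, adjusted p = 0.000937). The sets overlapped for SOX10 through left 6, without which the log2 fold was 5.57, and left 1 was its highest library. Both SOX10 folds rest on few counts in replicates 5 and 6. SOX10 passed the filter through replicates 1 to 3, so its direction was largely set by it and its call is no separate evidence. RET, the receptor of enteric crest cells, overlapped, at 0.810 to 9.82 CPM in replicates 1 to 3 and 1.69 to 7.54 CPM in replicates 5 and 6.

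Of 17 tested endocrine genes, 9 were higher (52.9%) and 2 lower (11.8%), against 20.6% and 29.4% among all entries. The fit on sums gave 7 and 1, and the median log2 fold was 1.33. The list sum overlapped, at 166 to 318 CPM (median 184) in replicates 1 to 3 and 185 to 274 CPM (median 222) in replicates 5 and 6. The 2 lower became 1 without left 6 or without right 6. INSM1, a factor of endocrine differentiation, had 1.12 to 13.9 CPM (median 4.76) in replicates 1 to 3 and 1.44, 0.0175, 0.375 and 0.900 CPM in replicates 5 and 6 (log2 fold 2.92, SE 0.72, adjusted p = 0.00664, or 3.72 without right 6). NEUROD1, of endocrine and neuronal cells, had 0.135 to 2.18 CPM in replicates 1 to 3 and 0.129, 0.0349, 0 and 0.0346 CPM in replicates 5 and 6 (adjusted p = 0.00112), with no fold given for so few counts in replicates 5 and 6. The INSM1 levels overlapped between the sets and those of NEUROD1 did not, by a narrow margin. NEUROD1 passed the filter through replicates 1 to 3, so its direction was fixed by it and its call is no separate evidence.

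Embryonic kidney genes gave 7 lower and 2 higher of 23 in replicates 1 to 3 (4 and 2 on sums; median log2 fold -0.14), a lower share close to that among all entries, and 4 lower without left 2. SLC12A3, a salt transporter of the distal tubule, had 0.699 to 7.42 CPM (median 2.12) in replicates 1 to 3 and 18.2, 27.9, 16.7 and 16.6 CPM in replicates 5 and 6 (log2 fold -2.58, SE 0.56, adjusted p = 0.00336). OSR2, an early kidney and gut mesenchyme factor, had 2.38 to 19.4 CPM in replicates 1 to 3 and 32.5, 43.1, 46.4 and 40.1 CPM in replicates 5 and 6, a log2 fold of -2.24. SLC5A2, the glucose transporter of the proximal tubule, was higher, with 4.68 to 10.5 CPM in replicates 1 to 3 and 2.61, 3.13, 1.66 and 2.08 CPM in replicates 5 and 6 (log2 fold 1.53, adjusted p = 0.00058). The podocyte marker NPHS1 had 0.135 to 56.1 CPM in replicates 1 to 3 and 6.66 to 19.6 CPM in replicates 5 and 6, and PAX2 had 0.135 to 1.43 CPM in replicates 1 to 3 and 0.190 to 0.856 CPM in replicates 5 and 6, so both overlapped.

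**Figure D5:**
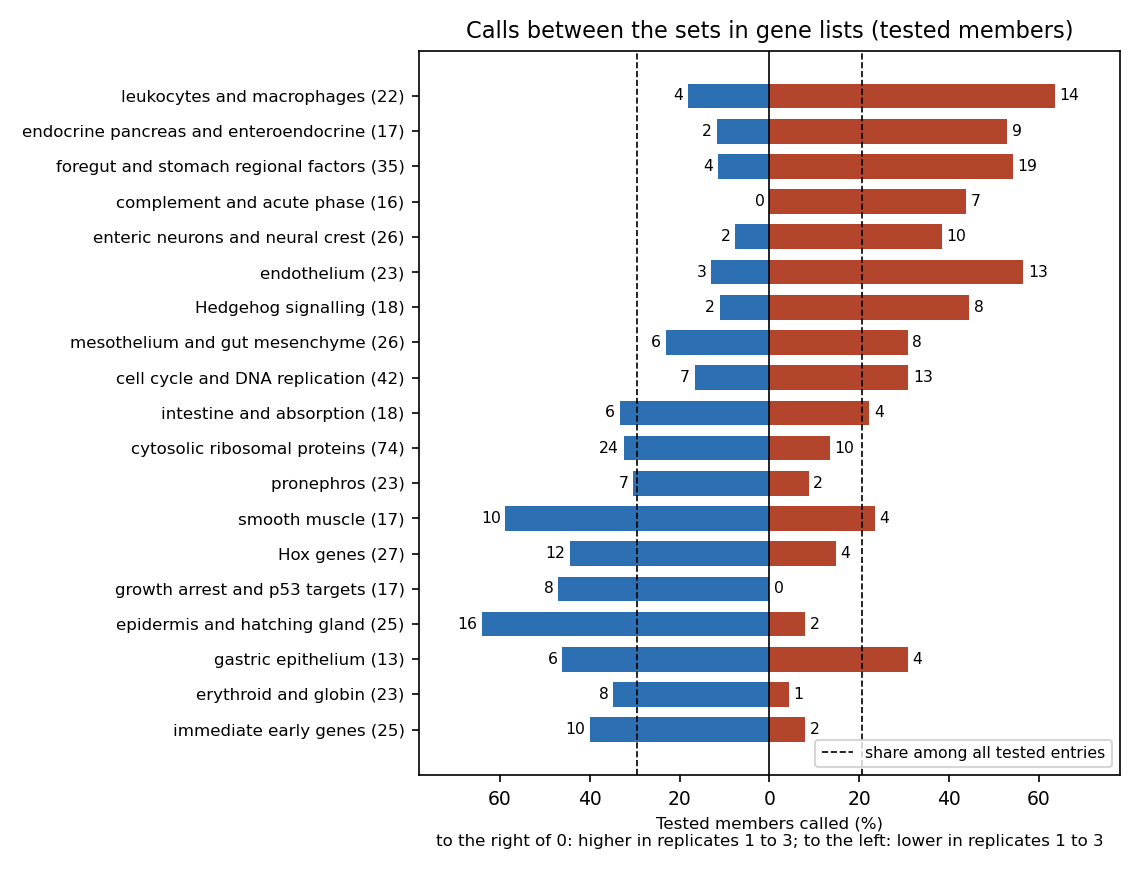
Share of tested members called higher (red, right) or lower (blue, left) in replicates 1 to 3 for 19 gene lists, in percent, with the number called at the bar end, the number tested in brackets and the shares among all tested entries as dashed lines. Leukocyte, foregut and endothelial lists reach past the line on the higher side, and epidermal and smooth muscle lists past it on the lower side.

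Mitochondrially encoded transcripts did not all follow their summed share. Of 10 tested, 5 were higher (50%) and 2 lower (20%) in replicates 1 to 3, or 4 lower without left 2. Among all entries 20.6% were higher and 29.4% lower. MT-CO1, a cytochrome oxidase subunit, had 36811 to 46001 CPM in replicates 1 to 3 and 19175, 24257, 20624 and 20866 CPM in replicates 5 and 6 (log2 fold 0.95, SE 0.08, adjusted p = 1.5e-05). MT-CO2, another subunit of that complex, had 1054 to 1578 CPM in replicates 1 to 3 and 3001, 3777, 3168 and 3233 CPM in replicates 5 and 6 (log2 fold -1.28, SE 0.11, adjusted p = 1.17e-05). MT-ND1 and MT-ND2, subunits of complex I, had log2 folds of 2.17 and 2.29. MT-ND1 had 1119 to 1593 CPM in replicates 1 to 3 and 349, 364, 262 and 276 CPM in replicates 5 and 6. These transcripts of one organelle thus differed in both directions, each with no overlap between the sets.

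Immediate early genes, which respond to handling and growth signals within a short time, were high in replicate 5. Of 25 tested, 10 were lower (40%) and 2 higher (8%) in replicates 1 to 3, against 29.4% and 20.6% among all entries. The fit on sums gave 3 and 1, and its lower share was below the 18.2% of all rows in that fit. The median log2 fold was -1.0. The list summed to 852 to 1019 CPM in replicates 1 to 3 and to 1819, 1886, 802 and 824 CPM in replicates 5 and 6, so that replicate 6 lay below every library of replicates 1 to 3. The count of lower members was 3 without left 5, 4 without right 5, 16 without left 6, and 1 without both libraries of replicate 5, where 14 were higher. SOCS3, a cytokine-induced inhibitor, had 1.5 to 5.33 CPM (median 2.29) in replicates 1 to 3 and 68.5, 109.9, 3.61 and 4.72 CPM in replicates 5 and 6 (log2 fold -3.97, SE 0.87, adjusted p = 0.00339). Its log2 fold was -3.29 without left 5, -2.73 without right 5 and -0.52 without both (adjusted p = 0.35), and the sets overlapped through replicate 6. KLF6, a zinc-finger factor, had 25.1 to 32.5 CPM in replicates 1 to 3 and 80.5, 95.5, 53 and 58.3 CPM in replicates 5 and 6, a log2 fold of -1.23. SRF, the factor that drives many of these genes, was higher at 64.6 to 101 CPM in replicates 1 to 3 and 71.4, 42.9, 50.3 and 61.0 CPM in replicates 5 and 6 (log2 fold 0.68, adjusted p = 0.00419).

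Growth arrest genes were lower in replicates 1 to 3 for 8 of 17 tested members (47.1%) and higher for 0, against 29.4% and 20.6% among all entries. The fit on sums gave 7 and 0, 4 were lower without both libraries of replicate 5, and the median log2 fold was -0.66. The list summed to 1019 to 1706 CPM in replicates 1 to 3 and 1891, 2222, 1887 and 2032 CPM in replicates 5 and 6. BTG2, an antiproliferative p53 target, had 230.2 to 366 CPM in replicates 1 to 3 and 579, 700.4, 499 and 539 CPM in replicates 5 and 6 (log2 fold -1.0, SE 0.15, adjusted p = 0.000381). CCNG2, a cyclin linked to arrest, had a log2 fold of -1.25. Cell cycle and replication genes gave 13 higher and 7 lower of 42 (31.0% and 16.7%, against 20.6% and 29.4% among all entries). The fit on sums gave 7 and 4, and its higher share was near the 16.9% of all rows in that fit. In the library fit 4 were lower without right 6, and the median log2 fold was 0.06. AURKB, a mitotic kinase, had 5.31 to 7.6 CPM in replicates 1 to 3 and 1.76, 1.22, 1.23 and 2.16 CPM in replicates 5 and 6, a log2 fold of 2.06. GINS1, a replication factor, had 6.86 to 8.99 CPM in replicates 1 to 3 and 12.1, 12.6, 14.0 and 14.8 CPM in replicates 5 and 6, a log2 fold of -0.77.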

How the data were processed

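Raw counts of reads were deposited by the authors in a table of 26940 rows, with a second table of normalized signal, the count divided by 1 factor per library. Of the values in it, 100% gave back whole reads within 0.01 reads, and the count test on these called 11629 rows. The submitters' processing notes name, without role or order, DESeq, Bowtie, SAMtools 0.1.19, Trimmomatic and Bowtie2 2.1.0. How reads were assigned, and whether strand was used, is not given in the sources used here. Rows are human UniProt entries (19415 reviewed, 7525 unreviewed), so isoforms and paralogs may share or split reads.

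Counts were tested with edgeR 4.0.16 in R 4.3.3 (quasi-likelihood F test after TMM scaling and filterByExpr, with Benjamini-Hochberg adjusted p below 0.05 called) with set and side as terms. Log2 folds are replicates 1 to 3 over replicates 5 and 6, and its standard error is its size over the square root of F. CPM use TMM-scaled totals. The libraries of each number were also summed and tested. No pair of libraries of a set and side agreed within counting error (chi-square over its degrees of freedom, 16.5 to 69.3). Nothing says that the libraries of a set are separate cultures or clutches, so p-values cover only the spread between them, which may be technical.

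The members compared, the 50 gene lists (1477 symbols, 1288 matched) and the tests were chosen with earlier results of these data known. The reviewed row of highest mean count stood for each entry. Genes were named by rule: the 12 largest folds per direction described in the results, up to 4 called members of each list by p, called interaction rows, and SIM2. Some genes so named are not reported here, and not every other one is described. Markers of tissues, Hox paralog groups with HOXA6 and HOXD9, paralogs and rows at 0 were chosen after their values were seen or as defining markers.

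Alternatives were other scalings and filters, DESeq2 1.42.0, limma 3.58.1 on log2(normalized value + 1), no side term, a replicate block, thinned counts, reviewed rows, rows summed by entry, either side alone, a threshold of 0.01, a minimum fold of 2 and each library or number left out. Programs were tested on simulated data.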

Additional observations from a re-analysis of the deposited data

Results flagged for a closer look

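In 218 groups of libraries examined, for 102 genes and 7 library measures, 20 had a highest or lowest library set apart from the others of its set. Chance would give about 10.9 if values were independent and normally distributed. The values were not transformed and genes may vary together, so 20 against 10.9 is not read as an excess. A single count beside libraries at 0, as for HOXA10, is set apart by construction. Among replicates 1 to 3, right 1 held 6 of them. DMGDH had 0.134 CPM in right 1 and 0 to 0.0340 CPM in the other 5 libraries. HSP90AB1 had 45.2 CPM in right 1 and 52.0 to 55.6 CPM in the others, and SRF had 64.6 CPM against 88.3 to 101. APOA4 had 53.4 CPM in right 1 and at most 15.4 CPM in the others. HOXA10 had 0.0334 CPM in right 1 and 0 in the others, and HOXC9 had 0.401 CPM against at most 0.0567.

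Left 1 was highest for 3 genes of neural crest or endocrine cells. SOX10 had 18.4 CPM in left 1 and at most 5.58 in the others. INSM1 had 13.9 CPM in left 1 and at most 5.67 in the others, and SOX8 had 28.2 CPM against at most 11.4. Also apart among replicates 1 to 3 were CD68 in right 2 (2.43 CPM, others at most 1.43), KLF6 in left 2 (25.1 CPM, others at least 30.4) and FRZB, a secreted Wnt inhibitor, in left 2 (72.6 CPM, others at most 43.3).

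Among replicates 5 and 6, right 5 stood apart for SOX2 (4.84 CPM, others at least 17.1), SLC12A3 (27.9 CPM, others at most 18.2), KRT18 (121 CPM, others at most 75.6), FOXJ1, a factor of ciliated cells (39.5 CPM, others at most 30.6) and LEF1, a Wnt target factor (38.8 CPM, others at least 47.2). Its share of counts in the 10 highest rows was 12.6%, against 10.8% to 11.1% in the other 3. TAL1 had 82.9 CPM in left 5, against at most 46.1 in the others. In left 6, RPS10, a ribosomal protein, had 43.7 CPM (others at most 35.5).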

How the results depend on the processing

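The 11629 rows called between the sets became 5299 with the left and 5638 with the right libraries alone, 1506 for a fold of more than 2, and 6163 of fewer rows when rows were summed by entry; other settings left the count within 1.5 times. Leaving out 1 library gave 10083 to 11322 calls, leaving out both libraries of a number 9375 to 11198, and the interaction stayed at 0 in each. The difference in rows detected was 173.67 at full depth (exact permutation p = 0.133) and 492.67 at equal depth (p = 0.00952). Same-numbered libraries deviated together with correlations of 0.411, 0.202, 0.0546, 0.419 and 0.419 in replicates 1, 2, 3, 5 and 6. Left 1 and left 2 matched their own number best, whereas left 3 matched number 2. Left 5 and left 6 also matched their own. With 2 libraries per side, the values of replicates 5 and 6 are equal by construction and count as 1 result. The pairing is a hint from the data only. A replicate block as a random effect gave 10182 calls. Of 3160 log2 folds recomputed for 102 genes under 31 settings, 3142 kept direction and call, 18 kept direction but lost the call, and none changed sign. Of the 18, 14 came from 1 side alone. Apart from SIM2, these genes were named because they were called in the first fit, so keeping a call was largely set in advance. All 102 also kept the call on sums per number. In that fit, genes named by the same rules but outside the 102, such as CRABP2, lost it (adjusted p = 0.0604). The full retention thus depends on which genes were described and is no separate evidence. The depth of 21525694 counts or more limits rows with a few counts.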

Other observations

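Clock genes, which keep daily time in most tissues, differed between the sets in both directions. Of 19 tested, 7 were higher and 6 lower in replicates 1 to 3 (6 and 5 on sums per number, median log2 fold 0.20). Those shares were 36.8% and 31.6%, against 20.6% and 29.4% among all entries. PER3, a period repressor, had 14.3 to 25.7 CPM (median 19.1) in replicates 1 to 3 and 5.40, 5.27, 4.54 and 4.38 CPM in replicates 5 and 6 (log2 fold 2.01, SE 0.18, adjusted p = 1.58e-05). CRY2, a cryptochrome repressor, had 3.28 to 7.83 CPM in replicates 1 to 3 and 1.07, 0.803, 0.697 and 1.23 CPM in replicates 5 and 6, a log2 fold of 2.43. PER1, the period gene that also responds to glucocorticoid, had 0.646 to 1.73 CPM in replicates 1 to 3 and 0.214, 0.0349, 0.0715 and 0.0519 CPM in replicates 5 and 6. Its log2 fold of 3.65, or 4.32 without left 5, rests on few counts in replicates 5 and 6. PER1 passed the filter through replicates 1 to 3, so its direction was fixed by it and its call is no separate evidence. CSNK1E, a kinase that marks period proteins for breakdown, had a log2 fold of -0.81. The sets did not overlap for these 4 genes, and the labels give no time of collection.

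The thyroid hormone and glucocorticoid list gave 3 higher and 5 lower of 16 (3 and 4 on sums), a lower share close to that among all entries. Among the lower ones, HSD11B2, which inactivates glucocorticoid, had 6.22 to 21.5 CPM (median 9.21) in replicates 1 to 3 and 73.9, 94.9, 99.5 and 89.8 CPM in replicates 5 and 6 (log2 fold -2.85, SE 0.34, adjusted p = 8.43e-05). TSC22D3, a glucocorticoid-induced leucine zipper protein, had 4.48 to 12.4 CPM in replicates 1 to 3 and 31.0, 30.3, 35.7 and 36.7 CPM in replicates 5 and 6, a log2 fold of -2.04.

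A pair of genes of motile cilia were lower in replicates 1 to 3. DNAH9, an axonemal dynein, had 64.5 to 95.8 CPM (median 81.1) in replicates 1 to 3 and 278, 274, 237 and 214 CPM in replicates 5 and 6 (log2 fold -1.64, SE 0.13, adjusted p = 5.4e-06). FOXJ1, the factor that drives motile ciliogenesis, had 10.7 to 17.5 CPM in replicates 1 to 3 and 30.3, 39.5, 30.6 and 29.4 CPM in replicates 5 and 6, a log2 fold of -1.21. No list of cilia genes was drawn up, so these 2 are named from other lists.

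Wnt pathway genes gave 14 higher and 15 lower of 50 (8 and 10 on sums, and 9 higher without left 5). Those shares were 28% and 30%, against 20.6% and 29.4% among all entries. On sums the shares were near the 16.9% and 18.2% of all rows in that fit. WNT11, a ligand of the non-canonical branch, had 1.75 to 3.03 CPM in replicates 1 to 3 and 12.3, 8.52, 10.9 and 9.41 CPM in replicates 5 and 6 (log2 fold -2.23, SE 0.16, adjusted p = 3.39e-06), and DKK3, a Dickkopf family member, had a log2 fold of -2.76. Splicing factors gave 19 lower and 4 higher of 33 (57.6% and 12.1%, against 29.4% and 20.6% among all entries). The fit on sums gave 14 and 1, 2 were higher without left 5 or without right 5, and the median log2 fold was -0.26. SRSF1, a regulator of splice site choice, had 171 to 191 CPM in replicates 1 to 3 and 322, 354, 358 and 373 CPM in replicates 5 and 6, a log2 fold of -0.96. Interferon-linked genes gave 5 lower and 1 higher of 15 (the same on sums, and 2 higher without left 2, right 3 or left 5). The lower share, 33.3%, was near the 29.4% among all entries, and the higher share was 6.67% against 20.6%. The sum of these genes was 115 to 221 CPM in replicates 1 to 3 and 261, 281, 251 and 264.1 CPM in replicates 5 and 6. Ribosomal protein genes gave 24 lower and 10 higher of 74 (16 and 10 on sums, and 13 lower without right 5), with a median log2 fold of -0.11. The lower share, 32.4%, was near the 29.4% among all entries, and the higher share was 13.5% against 20.6%. RPL11, of the large subunit, had a log2 fold of -0.69, and RPS10, of the small subunit, one of 1.42.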
